A study of Mus musculus with 41 samples.

Results

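Interferon-response genes are the genes that cells switch on when interferons bind their receptors, and 9 of them were followed here through the hippocampus of 41 mice: Ifit1, Ifit3, Isg15, Irf7, Irf9, Usp18, Bst2, Ifi27 and B2m. They were taken by name, with every probe set (a group of short probes for 1 transcript) that the platform annotation gives to them, dim ones included. Of the 9 genes, 8 had probe sets of their own, 10 in all, with 2 each for B2m and Ifi27, out of 45037 probe sets and 18193 named genes. The only probe set for Isg15 also carries the symbol of the pseudogene Gm9706, so its values are given apart as those of a shared probe set.

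The mice were males of the inbred strain C57BL/6J, all of 1 genetic background, with no transgene or drug named in the labels. Behavioural testing started at an age of 10 weeks and ended with passive avoidance in weeks 37 to 38. RNA from the hippocampus was taken 1 month later and put on 1 Affymetrix array per mouse. On 5 cognitive tests with 11 parameters, 2 ranking systems placed 8 mice as consistently low, 12 as consistently medium and 5 as consistently high, while 14 were ranked inconsistently and 2 had incomplete data. All groups went through the same test battery, so every animal was an experienced, tested adult, and no untested mouse is in the data used here. The inconsistent replicate 2 is also described as consistently medium, and it was kept in the inconsistent group.

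Type I interferons signal through receptor-bound kinases to the transcription factor complex ISGF3, of which Irf9 is a part. ISGF3 binds the interferon-stimulated response element in promoters, and one of its targets, Irf7, feeds forward by inducing more interferon. In a healthy brain the pathway is kept low, and microglia, the endothelium and cells at the brain's borders are among those known to respond.

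The promoters were searched for the element that ISGF3 binds, and those with a match are shown. RefSeq promoter windows of 300 bases (250 before to 50 after a transcript start, build GRCm38.p6) were found for 7 of the 9 genes, and Usp18 and Ifi27 were not among them. The core of the interferon-stimulated response element, written here as GAAA, any 2 bases and GAAA again, was searched on both strands and occurred in the windows of 5 of these 7 genes. Of all 32851 windows in the table, 1131 (3.44%) held it. Capitals mark the matches below, and where the match lies on the other strand the capitals read TTTC at both ends.
Ifit1: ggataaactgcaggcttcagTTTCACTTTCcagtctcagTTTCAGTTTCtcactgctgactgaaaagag
Ifit3: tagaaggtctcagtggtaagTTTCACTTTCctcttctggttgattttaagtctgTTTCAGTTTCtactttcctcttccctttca
Isg15: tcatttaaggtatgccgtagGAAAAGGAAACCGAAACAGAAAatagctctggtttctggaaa
Bst2: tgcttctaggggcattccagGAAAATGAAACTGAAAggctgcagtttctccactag
B2m: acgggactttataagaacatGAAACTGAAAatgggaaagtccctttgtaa

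These stretches lie upstream of the transcript start on the gene's own strand, and each is written 5′ to 3′ on it. The Ifit1 stretch is chr19:34640765-34640833 (plus strand), with matches starting 104 and 85 bases before the start. The Ifit3 stretch is chr19:34583353-34583436 (plus strand), with matches at 156 and 122 bases. Both genes of the Ifit pair thus carry the same 2 decamers, in the same order. The Isg15 stretch is chr4:156200855-156200916 (minus strand), with 3 overlapping matches at 78, 72 and 66 bases. The Bst2 stretch is chr8:71537567-71537622 (minus strand), with 2 overlapping matches at 130 and 124 bases, and the B2m stretch is chr2:122147528-122147577 (plus strand), with 1 match at 139 bases. A window with 2 or more matches was found in 0.225% of all windows, and 4 of the 7 genes had one. The windows of Irf7 and Irf9 did not hold this core. TTCNNNGAA, the core of the gamma-activated sequence, was found in the Bst2 window alone of the 7, where it overlaps the first match, and in 8.30% of all windows. A match of letters is a description and not a measured binding site.

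The values below are log2(intensity + 16) after quantile normalization over all 41 arrays, called log2 level from here on, and because of the added 16 a difference on this scale understates the change of a dim gene. Each array was 1 mouse, so the number of mice in a group sets the precision. Correlations between arrays ran from 0.971 to 0.991. Medium replicate 9 stood apart, with a mean of 12 hippocampal neuron markers of 8.11 against a median of 9.40 over the arrays and the highest neocortex and striatum means, 9.90 and 8.73. Markers of the choroid plexus, the secretory tissue of the ventricles, split the arrays in 2, with a mean of 14 markers between 5.45 and 6.51 in 30 arrays and between 7.76 and 9.14 in 11. The 11 bright arrays were 3 low, 4 medium, 3 inconsistent and 1 incomplete mouse, and none of the 5 high mice was among them. Clustering of spike-in controls, cut at 3 clusters, split the arrays into sets of 7, 10 and 24, called batches here. These came from the clustering and not from the labels, and the split between the 10 and the 24 depended on the method. The set of 7 held no high mouse. Lymphocyte markers stayed dim in every array, with means of 9 markers from 4.67 to 4.99, and microglia markers ranged from 7.75 to 8.07. In a bulk sample, fewer cells of a type and less RNA per cell cannot be told apart.

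Irf7 and Irf9, the transcriptional regulators among the 9, had group means that differed by less than the spread inside the low, medium, high and inconsistent groups. The Irf7 log2 level was 5.50 ± 0.13 (SD, n = 8) in low, 5.46 ± 0.21 (SD, n = 12) in medium mice, and the high mice had 5.44 ± 0.21 (SD, n = 5). In the inconsistent group it was 5.45 ± 0.26 (SD, n = 14), and the 2 incomplete mice had 5.24 and 5.21. The widest spread was within the inconsistent group, from 4.99 to 5.98, so neighbours in the order of these 4 groups did not differ beyond their spread. Both incomplete mice lay below every low and every high mouse. Irf9, the DNA-binding part of ISGF3, had means of 6.37 ± 0.18 (SD, n = 8) in low mice, followed by high mice at 6.34 ± 0.22 (SD, n = 5) and medium mice at 6.30 ± 0.17 (SD, n = 12). It was 6.32 ± 0.21 (SD, n = 14) in the inconsistent group and 6.38 and 6.30 in the incomplete mice. Over all arrays Irf9 ran from 5.89 to 6.65, and each group's range overlapped those of the others.

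Ifit1 and Ifit3 are cytosolic tetratricopeptide-repeat proteins, of which Ifit1 binds viral RNA with foreign cap structures. Ifit1 was dim, with deposited intensities between 11.1 and 35.9. Its log2 levels in the high mice were 4.95, 5.66, 5.13, 4.90 and 5.13 for replicates 1 to 5. Replicate 2 was high and the other 4 lay in the lower part of the range. In the low mice the lowest, median and highest values were 4.96, 5.32 and 5.51, in the medium mice 4.90, 5.23 and 5.68, and in the inconsistent mice 4.91, 5.32 and 5.70. These groups overlapped throughout. Ifit3 ran higher on its own scale, with high mice at 6.80, 6.97, 6.53, 7.12 and 6.69. The low mice spanned 6.70 to 7.46 around a median of 6.85, the medium mice 6.54 to 7.18 around 6.88, and the inconsistent mice 6.60 to 7.18 around 6.93. The highest Ifit3 value of all 41, 7.46, was low replicate 6. Ifit3b, a near-identical neighbour, may share probes with Ifit3, which was not tested.

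Usp18 removes Isg15 from proteins and restrains the interferon receptor. Its log2 levels in the high mice were 5.36, 5.83, 5.16, 5.46 and 5.26. Replicate 2 stood above the others here as it did for Ifit1. The low mice spanned 5.08 to 5.90 around a median of 5.35, with low replicate 6 at the top and the next at 5.44. The medium mice lay between 5.09 and 5.47 and the inconsistent mice between 4.83 and 5.52. The probe set shared by Isg15, the ubiquitin-like modifier itself, and Gm9706 gave means of 5.53 ± 0.12 (SD, n = 8) in low, 5.56 ± 0.20 (SD, n = 12) in medium mice, with 5.48 ± 0.29 (SD, n = 5) for the high and 5.58 ± 0.20 (SD, n = 14) for the inconsistent mice. Those means differed by less than the spread inside any of these groups.

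Bst2, or tetherin, holds budding virions at the cell surface. Its log2 levels in the high mice were 5.68, 5.49, 5.49, 5.26 and 5.35, a narrow and low-lying set. The low mice had a lowest, median and highest value of 5.34, 5.68 and 6.29, the medium mice of 5.14, 5.80 and 6.21, and the inconsistent mice of 5.02, 5.67 and 6.34. The 2 incomplete mice had 6.16 and 6.05. The high group therefore lay inside the range of the medium and inconsistent groups, and only its lowest value fell below that of the low group. Ifi27 encodes a small hydrophobic membrane protein, and how far interferon induces it in this tissue was not measured. In the high mice its brighter probe set read 9.13, 9.13, 9.04, 9.19 and 9.26. The low mice spanned 8.87 to 9.89 around 9.22, the medium mice 8.27 to 9.77 around 9.29, and the inconsistent mice 9.00 to 9.69 around 9.18. The high mice lay close together inside these ranges, below the highest values of each, and the lowest Ifi27 value of the 41 was medium replicate 9.

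B2m, the light chain of class I major histocompatibility molecules, was bright, with deposited intensities of its brighter probe set from 790.0 to 1812. Its log2 level was 10.37 ± 0.14 (SD, n = 8) in low, 10.27 ± 0.10 (SD, n = 12) in medium mice, with 10.31 ± 0.22 (SD, n = 5) for the high and 10.33 ± 0.17 (SD, n = 14) for the inconsistent mice. The 2 incomplete mice had 10.17 and 10.15. The other B2m probe set gave 10.29 ± 0.22, 10.24 ± 0.10, 10.23 ± 0.13 and 10.23 ± 0.13 (SD) in the same groups. Across the arrays the B2m probe sets correlated at r = 0.342 (permutation p = 0.0285, adjusted 0.0285 over the 2 genes with 2 probe sets; rho = 0.340, p = 0.0310) and those of Ifi27 at r = 0.753 (p = 1e-05, the smallest the permutations can give, adjusted 2e-05; rho = 0.657, p = 1e-05).

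**Figure D1:**
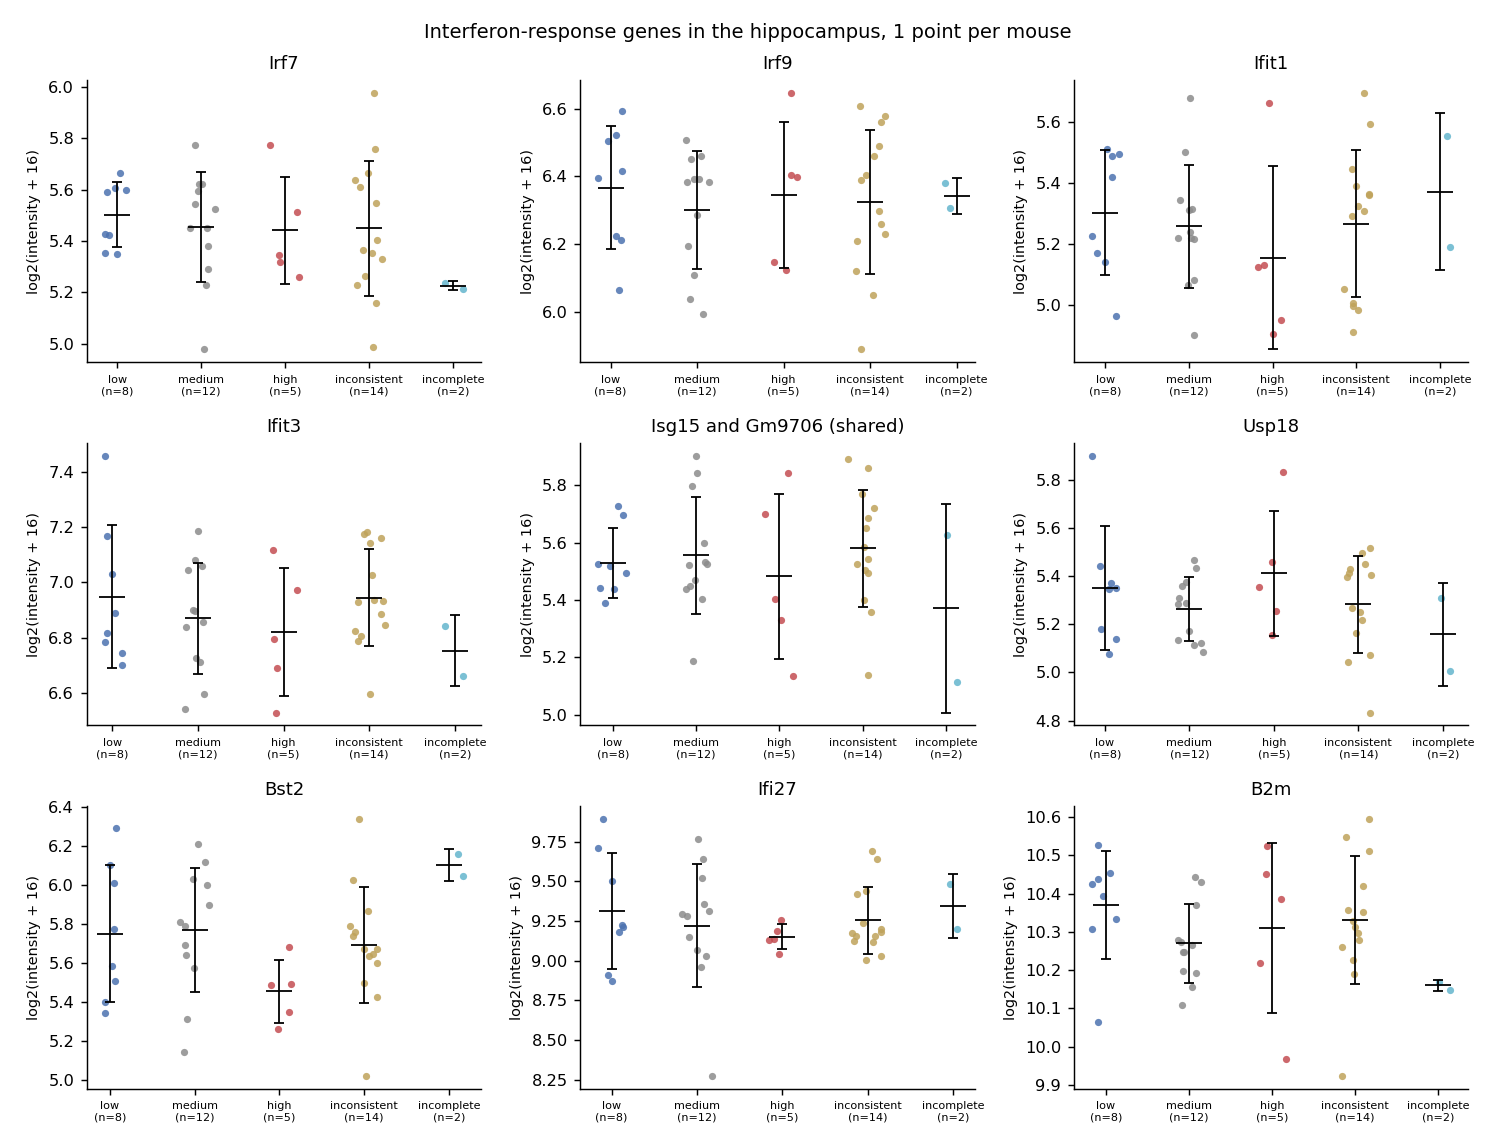
Log2 level, log2(intensity + 16), of the brighter probe set of each gene and of the probe set shared by Isg15 and Gm9706, by cognitive group. Points are mice, and bars give the mean ± 1 SD; every axis has its own range. The low, medium, high and inconsistent groups overlap in every panel, and the 5 high mice are low-lying for Bst2 (5.26 to 5.68).

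No interferon-response gene differed between the cognitive groups past the threshold. The comparison of high with low mice asks which genes differ between the ends of the ranking, and 0 of the 8 genes passed the threshold (limma, Benjamini-Hochberg over all probe sets, adjusted p of 0.05), where 2 of 45037 probe sets did (0.00444%). At an unadjusted p under 0.05 it was also 0 of 8, against 7.25% of all probe sets. The median difference, high minus low, was -0.094 on the log2 scale, with 1 gene above 0 and 7 below, while the median over all probe sets was 0.0035 and 51.2% lay above 0. The largest difference was that of Bst2, -0.30 ± 0.17 (SE), with limma's adjusted p = 0.742. Ifi27 followed with -0.16 ± 0.18 (SE), Ifit1 with -0.15 ± 0.13 (SE) and Ifit3 with -0.13 ± 0.12 (SE), and Usp18 was the one gene above 0, at 0.06 ± 0.12 (SE). Adjusted p-values of the 8 genes' probe sets and the shared one lay between 0.742 and 0.980. Groups that did not overlap occurred in 0.346% of all probe sets and in none of these, and for high against medium in 0.224% and for medium against low in 0%, again in none of these.

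Between high and medium mice the median difference over the 8 genes was -0.031, with 3 genes above 0 and 5 below (51.0% of all probe sets lay above 0), and 0 passed the threshold where 4 of 45037 probe sets did (0.00888%). Bst2 again had the largest difference, high minus medium, of -0.31 ± 0.16 (SE), with an unadjusted limma p of 0.0551 and an adjusted p of 0.510. Usp18 differed by 0.15 ± 0.11 (SE), with an adjusted p of 0.692 by limma. Ifit1 differed by -0.10 ± 0.12 (SE), and of the other 5 genes Ifi27 was farthest from 0, at -0.070. The comparison of medium with low mice gave 0 calls among 45037 probe sets by limma (0%) and 1661 probe sets (3.69%) at an unadjusted p under 0.05, none of them of these genes. There 7 of the 8 genes were below 0, where 50.1% of all probe sets lay above 0, with a median of -0.073 and B2m farthest from 0 in units of its error, at -0.10 ± 0.06 (SE). These 3 comparisons share groups, so their directions are not independent of each other.

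A moderated F test for any difference among low, medium and high mice gave adjusted p-values from 0.773 (Bst2) upwards for these genes by limma, where 2 of 45037 probe sets were called (0.00444%). With the inconsistent mice as a further group 3 were called (0.00666%), and the lowest adjusted p among these genes was that of Bst2 again, 0.836 by limma.

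**Figure D2:**
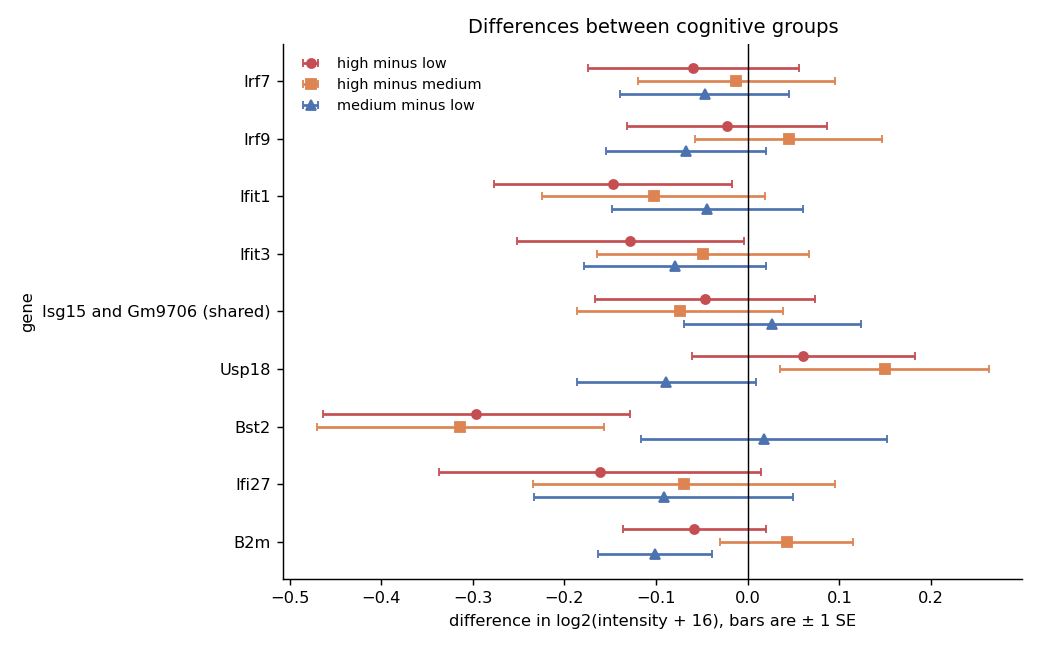
Difference in log2 level between cognitive groups for each gene, from 1 fit to the 25 low, medium and high arrays; bars are ± 1 SE. Bst2 lies farthest from 0, at -0.30 (high minus low) and -0.31 (high minus medium), and none of the differences passed the threshold.

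The differences of Bst2 and Ifi27 changed when the arrays bright in choroid plexus markers were left out. The mean of these markers ran from 5.69 to 6.01 in the 5 high mice, 5.45 to 9.14 in the low and 5.54 to 9.05 in the medium mice. All 5 high mice were in the dim set, with 5 low and 8 medium mice. The part of the choroid plexus in these differences was not tested. Without the 11 bright arrays the Bst2 difference, high minus low, was -0.067, and high minus medium it was -0.18. The Ifi27 difference turned to 0.072 against the low and 0.11 against the medium mice. Within the batch of 24 arrays, with 4 high mice, Bst2 differed by -0.37 from the low and -0.38 from the medium mice. In the batch of 10 arrays, with 1 high mouse, it differed by 0.096 and 0.026. The batch of 7 arrays held no high mouse.

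The rest of the pathway gave no call either. Of 10 lists covering ligands to effectors, 140 genes were measured, and 0 rose and 0 fell in each of the 3 comparisons by limma. An unadjusted p under 0.05 was reached by 5 of 140 (3.57%) for high against low, 7 (5.00%) for high against medium and 5 (3.57%) for medium against low, beside 7.25%, 10.1% and 3.69% of all probe sets. The smallest p for high against low belonged to Nmi, an interferon-inducible protein, with a difference of 0.28 ± 0.10 (SE), to the ligand gene Ifnz with -0.37 ± 0.14 (SE) and to Tlr3, a sensor of double-stranded RNA, with 0.31 ± 0.12 (SE). Their adjusted p-values by limma were 0.607, 0.607 and 0.618. For high against medium they were the Irf2-binding corepressors Irf2bp1, at -0.22 ± 0.07 (SE), and Irf2bp2, at -0.24 ± 0.09 (SE), and the class I loading chaperone Pdia3, at 0.19 ± 0.07 (SE). For medium against low they were Sp100, a nuclear body protein, at -0.28 ± 0.11 (SE), the GTPase gene Mx1 at -0.27 ± 0.11 (SE) and the immunoproteasome subunit Psmb8 at -0.22 ± 0.09 (SE). The adjusted p of each of these was 0.9991 by limma. Sp100, Mx1 and Ifnz were dim, with mean log2 levels of 4.686, 4.555 and 4.688 beside a median of 5.744 over all probe sets.

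By role, the 10 measured ligand genes had a median difference of -0.062 between high and low mice, with 1 above 0, and all 10 had mean levels below the median of all probe sets. The 11 receptors and signal transducers had a median of 0.035 with 8 above 0, and the 6 other interferon regulatory factors one of -0.037 with 2 above 0. The 53 antiviral effectors had a median of -0.021 with 23 above 0. The 18 genes of class I antigen presentation, the partners of B2m, had a median of -0.027 with 5 above 0. Among the 4 measured genes of Isg15 conjugation 1 lay above 0, with a median of -0.15.

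Across the 41 arrays the 8 genes co-varied weakly, with 2 pairs that stood out. Pearson's r was computed for all 28 pairs over each gene's brighter probe set, with 100000 permutations and Benjamini-Hochberg adjustment over the 28. It lay above 0 in 22 pairs, with a median of 0.159 and a range from -0.339 to 0.686. An unadjusted p under 0.05 was reached by 6 pairs, and 2 passed the adjusted threshold, Bst2 with Ifi27 and Ifit1 with Usp18. Array and group are shared by all pairs, and 41 arrays from 5 groups were pooled. With each group centred on its own mean the same 2 pairs had r = 0.706 and 0.525.

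Bst2 and Ifi27 varied together over the arrays, with r = 0.686 (permutation p = 1e-05, the smallest possible, adjusted 0.00028) and rho = 0.654 (p = 3e-05, adjusted 0.00084). Without the 2 arrays farthest from the median of Bst2 r was 0.686, and without the 2 farthest in Ifi27 it was 0.691. Within the spike-in batches of 7, 10 and 24 arrays it was 0.684, 0.653 and 0.725. The second probe set of Ifi27 gave 0.556. Both genes were bright where choroid plexus markers were: Ifi27 ran from 9.35 to 9.89 in the 11 bright arrays and from 8.27 to 9.42 in the other 30, and Bst2 from 5.74 to 6.34 and from 5.02 to 6.05. Within the 30 arrays r was 0.353 (adjusted permutation p = 0.228) and within the 11 it was 0.522 (adjusted permutation p = 0.585), so the relation did not pass the threshold inside either set. Within the 11 bright arrays Ifi27 had r = 0.712 to the choroid plexus mean (rho = 0.736, permutation p = 0.0117 and 0.0125, adjusted p of r 0.0722 over 9 probe sets). Within the 30 dim ones its r was 0.214 (adjusted permutation p = 0.458), and neither value passed the threshold. The difference between these 2 values of r was not tested. For Irf7 r to the choroid plexus mean was -0.704 within the 11 bright arrays (rho = -0.736, adjusted permutation p of r 0.0722), which did not pass the threshold either.

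Ifit1 and Usp18 had r = 0.448 (permutation p = 0.00307, adjusted 0.0430) and rho = 0.387 (permutation p = 0.0130, adjusted 0.102). The relation was above 0 in each spike-in batch, at 0.419, 0.512 and 0.378, and in both choroid plexus sets, at 0.409 and 0.628. It did not pass the threshold with levels centred within batches (r = 0.404, adjusted permutation p = 0.105). The call was kept in 29 and lost in 12 of 41 fits that left out 1 array, with r between 0.378 and 0.501. Without high replicate 2, which was high in both genes, r was 0.378 (adjusted permutation p = 0.115). Without inconsistent replicate 2, the lowest in Usp18, it was 0.396 (adjusted permutation p = 0.103), and without low replicate 6 it was 0.421 (adjusted permutation p = 0.0774). The other losses came without medium replicates 1 (r = 0.437), 4 (0.431), 11 (0.437) and 12 (0.439), high replicates 3 (0.442) and 5 (0.448), and inconsistent replicates 5 (0.427), 6 (0.437) and 14 (0.436).

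**Figure D3:**
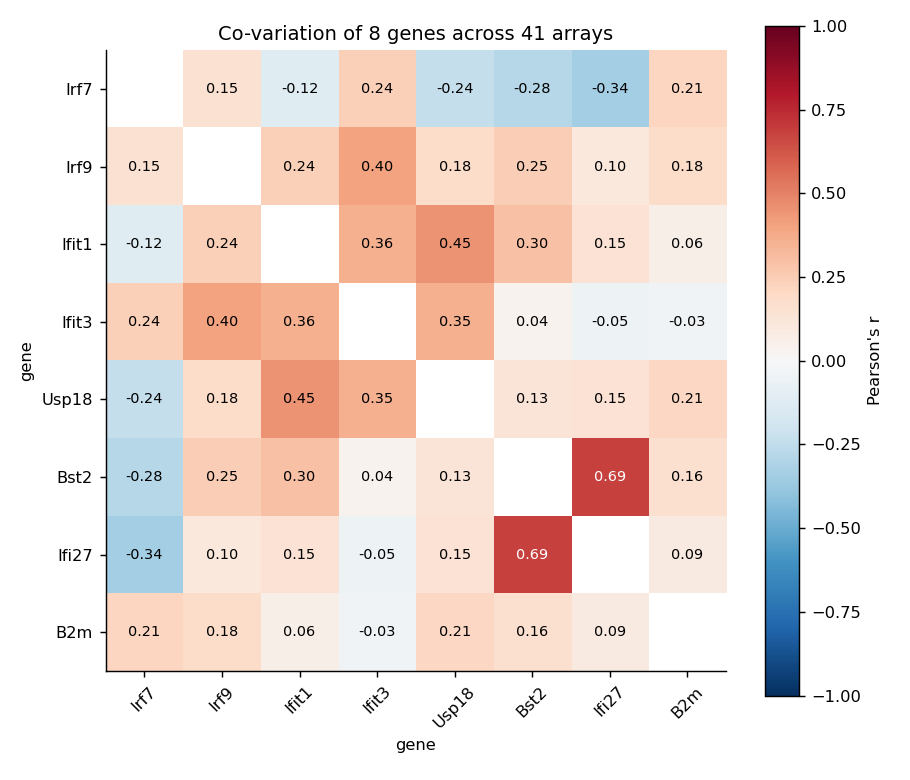
Pearson's r between the log2 levels of 8 interferon-response genes over 41 arrays, for all 28 pairs; red is above 0 and blue below. Bst2 with Ifi27 (0.69) and Ifit1 with Usp18 (0.45) are the pairs that passed the adjusted threshold, and Irf7 has the lowest value, with Ifi27 (-0.34).

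**Figure D4:**
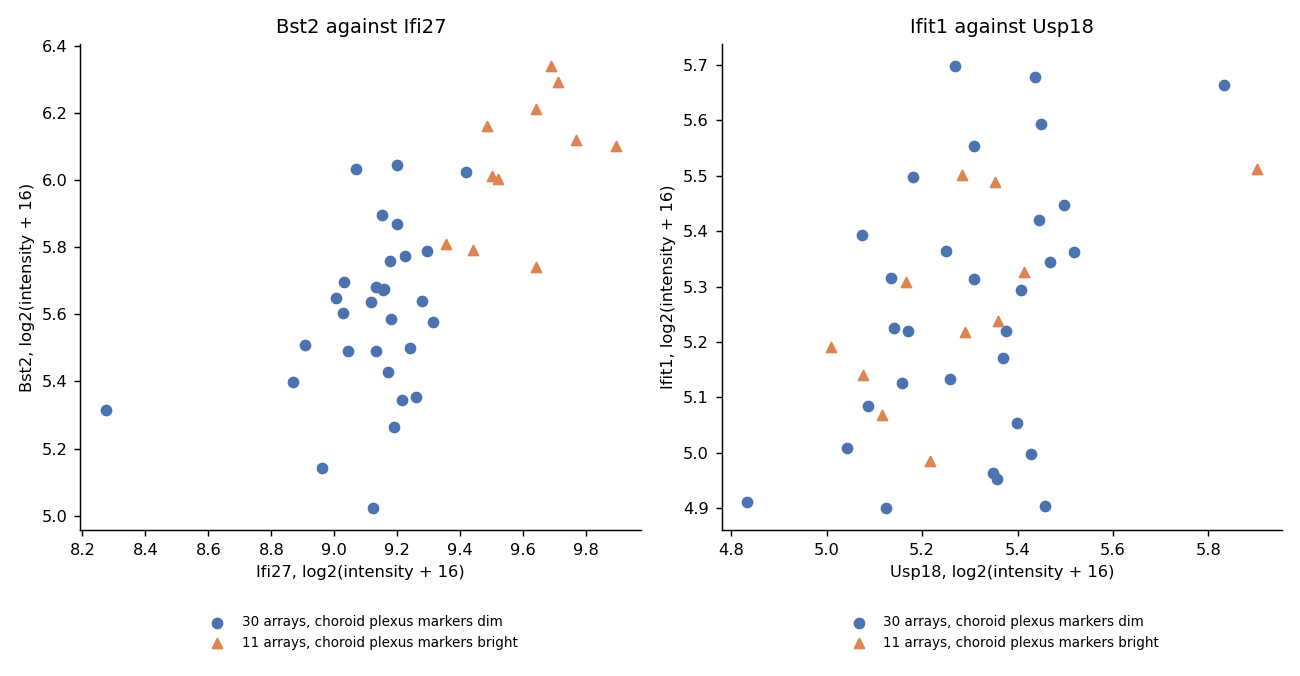
Bst2 against Ifi27 (left) and Ifit1 against Usp18 (right), in log2(intensity + 16), 1 point per mouse; triangles are the 11 arrays with bright choroid plexus markers. The triangles take the upper right of the left panel, where Ifi27 is at least 9.35, and are spread over the right panel.

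The remaining pairs did not pass. Irf9 with Ifit3 came next at r = 0.401 (permutation p = 0.00950, adjusted 0.0887; rho = 0.428, adjusted 0.0834). Ifit1 with Ifit3, which share the promoter decamers shown above, had r = 0.358 (permutation p = 0.0218, adjusted 0.131), and Ifit3 with Usp18 r = 0.353 (permutation p = 0.0234, adjusted 0.131). The latter was 0.183 without low replicate 6. The lowest values were those of Irf7, with r of -0.339 to Ifi27 (permutation p = 0.0302, adjusted 0.141), -0.285 to Bst2 and -0.240 to Usp18. Irf7 lay above 0 with Ifit3 (0.237), B2m (0.214) and Irf9 (0.154). Within the batches of 7, 10 and 24 arrays its r to Ifi27 was -0.56, -0.64 and 0.024. To Bst2 it was -0.71, -0.70 and 0.056. The r of Irf7 to the mean of the other 7 genes was -0.095, while that of the others lay between 0.215 (Ifi27) and 0.437 (Irf9). For Irf7 this r was -0.17 and 0.17 in the arrays with dim and bright choroid plexus markers. The shared probe set of Isg15 and Gm9706 had r between -0.214 (Irf9) and 0.230 (Ifit3) with the 8 genes, and its lowest adjusted permutation p was 0.622.

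To describe the genes as 1 group, each was standardized over the 41 arrays and the 8 were averaged per array, without a test. This mean ranged from -1.02 (medium replicate 4) to 1.55 SD units (low replicate 6). Low replicate 6 and inconsistent replicate 14, at 0.96, were above the average in all 8 genes. By group the median was -0.081 in low, 0.017 in medium, -0.49 in high and -0.17 in inconsistent mice. The range of each of these groups contained 0: -0.35 to 1.55 in low, -1.02 to 0.45 in medium, -0.71 to 0.74 in high and -0.73 to 0.96 in inconsistent mice. The 2 incomplete mice had -0.18 and -0.15.

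Ifitm3, an antiviral membrane protein of endosomes, was the gene most like this mean, at r = 0.782 over 41 arrays among 11210 genes ranked. For scale, the 5th and 95th percentiles of r over all probe sets were -0.281 and 0.280, and genes ranked this way were chosen by their r and carry no test. Next came ceruloplasmin Cp (0.719), the secreted leucine-rich protein Islr (0.714), the complement C1 inhibitor Serping1 (0.705) and vitronectin Vtn (0.701). Mgp, matrix Gla protein (0.688), vimentin Vim (0.687), Mxra8 (0.681), osteoglycin Ogn (0.669), the neonatal Fc receptor chain Fcgrt (0.668), apolipoprotein Apod (0.668) and Itih5 (0.664) completed the 12. At the other end were Zmynd19 (-0.620), the presynaptic scaffold Pclo (-0.556), Ubn2 (-0.541) and Rspry1 (-0.538). For Ifitm3 r was 0.644, 0.858 and 0.767 within the batches of 7, 10 and 24 arrays, and 0.795 and 0.723 in the 30 and 11 arrays with dim and bright choroid plexus markers.

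Of the other 140 pathway genes, 90 had r above 0 to the mean, with a median of 0.093, beside 48.2% and -0.0078 for all probe sets. After Ifitm3 the highest were its relative Ifitm2 (0.626) and galectin Lgals9 (0.598), and the lowest was Uba7, the activating enzyme of Isg15 conjugation (-0.360). The 8 measured interferon-gamma responsive GTPases all lay above 0, between 0.195 and 0.476. The 53 antiviral effectors had a median of 0.167 with 38 above 0 and the 18 class I genes one of 0.172 with 13 above 0. The 8 genes that restrain the signal had a median of -0.070, with 3 above 0.

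The genes' mean, though not each gene alike, moved with markers of the meninges and fibroblasts, of which 12 of 12 were measured. Islr, Mgp and Ogn belong to that list and Vtn to that of pericytes. As a description over 41 arrays, the mean of the 8 genes had r = 0.657 (rho = 0.613) to the mean of the meningeal list and 0.512 without low replicate 6 and high replicate 2, the 2 arrays farthest in that list. Within the batches of 7, 10 and 24 arrays r was 0.969, 0.575 and 0.707, and within the dim and bright choroid plexus sets 0.546 and 0.880. To the 9 pericyte and smooth muscle markers it was 0.593 (rho = 0.435), to the endothelium 0.450 (rho = 0.291), to microglia 0.204 (rho = 0.109) and to lymphocytes 0.241 (rho = 0.193). Without the 2 arrays farthest in each list these r were 0.468, 0.302, 0.177 and 0.335. Within the batches of 7, 10 and 24 arrays r to microglia was -0.78, -0.36 and 0.34, and to lymphocytes -0.54, -0.11 and 0.38. To the contrast of 3′ and 5′ Gapdh probe sets, often read for RNA quality, the mean of the 8 genes had r = -0.376 (rho = -0.444), and -0.325 without the 2 farthest arrays. That contrast was below 0 in every array, from -0.56 to -0.35, so the 5′ probe set was the brighter throughout. The same contrast for actin was above 0 in every array, from 0.43 (medium replicate 10) to 0.82 (medium replicate 9), and it was not set against the genes. Low replicate 6 had the highest meningeal mean, 7.58, and the highest pericyte mean, 8.00, of all arrays. The meningeal mean ran from 6.47 to 7.58 in low, 6.52 to 7.15 in medium, 6.33 to 7.45 in high and 6.46 to 7.41 in inconsistent mice. The single genes differed in r to the meningeal list: -0.006 for Irf7, 0.156 for B2m, 0.328 for Irf9 and 0.402 for Ifit3. Usp18 had 0.499 and Ifit1 0.560. Bst2 and Ifi27 each had 0.348, and 0.17 and 0.18 within the 30 arrays dim in choroid plexus markers. The part of the listed cell types in the co-variation was not tested.

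**Figure D5:**
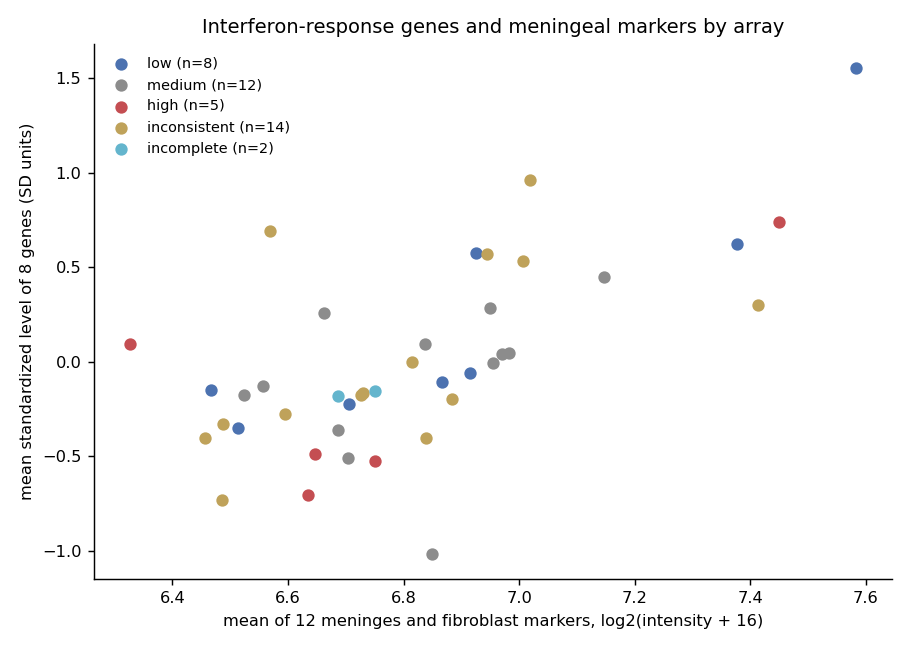
Mean standardized level of 8 interferon-response genes (SD units) against the mean log2 level of 12 meninges and fibroblast markers, 1 point per mouse, coloured by cognitive group. Low replicate 6 is at the upper right, at 7.58 and 1.55, and the groups are mixed over the plot.

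Gene by gene, 9 probe sets, the shared one among them, were set against 13 measures (11 cell type lists, the array median before normalization and the Gapdh contrast), with permutation p-values adjusted over these 117 relations. For Ifit1 and the meningeal list r was 0.560 (permutation p = 0.00012, adjusted 0.0140) and rho 0.598 (permutation p = 6e-05, adjusted 0.00702), and r was 0.486 without the 2 farthest arrays. Within batches it was 0.798, 0.522 and 0.521. For Usp18 r was 0.530 to pericytes (permutation p = 0.00078, adjusted 0.0413; rho = 0.391, adjusted 0.175) and 0.499 to the meningeal list (permutation p = 0.00106, adjusted 0.0413; rho = 0.288, adjusted 0.349). The latter was 0.211 without the 2 arrays farthest in that list. Within the batches of 7, 10 and 24 arrays it was 0.281, 0.434 and 0.631. Ifi27 had r = -0.453 to the Gapdh contrast (permutation p = 0.00376, adjusted 0.0701; rho = -0.318) and -0.272 without the 2 farthest arrays, of which medium replicate 9 was one. To neocortex markers its r was -0.513 (permutation p = 0.0062, adjusted 0.0725; rho = -0.200). That r was -0.095 without the 2 arrays farthest in that list, low replicate 8 and medium replicate 9. Bst2 and Ifi27 had r = 0.428 and 0.430 to oligodendrocyte markers (adjusted permutation p = 0.0701 for each; rho = 0.447 and 0.326), and within the 30 arrays dim in choroid plexus markers r was 0.073 and -0.021. Ifit3 had r = 0.474 to pericytes (permutation p = 0.00184, adjusted 0.0538; rho = 0.466, adjusted 0.0798), and 0.363 without the 2 farthest arrays. To the endothelium its r was 0.428 (adjusted permutation p = 0.0701; rho = 0.311). Ifit1 had r = 0.427 to pericytes (adjusted permutation p = 0.0701; rho = 0.443). Irf9 to pericytes (r = 0.400) and Ifit3 to the meningeal list (r = 0.402) each had an adjusted permutation p of 0.0851. No other relation of these 117 passed the adjusted threshold by r.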

How the data were processed

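The deposited table holds linear probe set intensities by its range (0.0112 to 13549), with array medians from 22.4 to 55.0. Partek and RMA appear in the submitters' processing notes, without versions. Which step gave the deposited intensity values was not stated in those notes. Intensities of 45101 probe sets were quantile-normalized over 41 arrays and taken as log2(intensity + 16). Without 64 array controls, 45037 probe sets were fitted with limma 3.58.1 in R 4.3.3, with a variance trend and no filter on dim probe sets. Differences came from 1 fit of the 25 low, medium and high arrays. The labels do not say whether mice shared litters or cages. Deposited log2 values had been assumed when the test was planned, and the offset was added once the linear unit was seen. By the platform annotation, 34945 probe sets carried 1 symbol, 932 several and 9160 none. Probe sets with several were not named. Genes with several probe sets are given by the brightest.

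Correlations used 100000 two-sided permutations in Python 3.11.15 (numpy 2.4.6). Named genes were the members, the 12 highest and 4 lowest of all genes by r to the members' mean among probe sets at or above the median level, and in the pathway lists the 3 highest and 1 lowest by r and up to 3 by p per comparison. Members, lists and tests were chosen with earlier results of these data known. Batches came from clustering 42 spike-in probe sets (Ward's method, 3 clusters): the batch of 7 arrays came out in most clusterings tried, and the split of the others depended on the method. Scripts were tested on simulated data. Alternatives covered scaling, offset, variance model, arrays in the fit, batch, choroid plexus arrays and leaving out each mouse.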

Additional observations from a re-analysis of the deposited data

Results flagged for a closer look

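In groups of 5 and 8 mice, 22 sets of values were checked for a single mouse far from the rest of its group, and 2 were found; chance alone flags about 1 in 20. Usp18 in low replicate 6 was 5.90 on the log2 scale, and the next low mouse was at 5.44, a gap of 0.553 of the group's range, above Dixon's critical value for 8 mice. That array also had the highest level of the 41 for Ifit3 and the highest meningeal marker mean. The brighter B2m probe set in low replicate 8 was 10.06, the lowest of its group, with the next at 10.31 and a gap of 0.527, just above that value. The other B2m probe set in the same mouse was 10.38, inside the range of its group.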

How the results depend on the processing

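No interferon-response gene passed the adjusted threshold in the 3 pairwise comparisons under any alternative run; counts below are of all 45037 probe sets unless said. For high against low, 2 calls became 0 with arrays centred on their medians, with only the groups compared, in batch 3 alone, without the bright choroid plexus arrays (10 or, added after seeing the data, all 11) and with the replicate block, and 1 without normalization. For high against medium, 4 calls became 1 with a constant prior variance and without the 10 bright arrays, 7 among the brighter probe sets with a constant prior variance (both changed together), 10 when all 41 arrays were fitted together and 24 under array weights. They became 0 with median centring, without normalization, with only the groups compared, in batch 3 alone, without all 11 bright arrays and with the replicate block. For any difference among 3 groups, 2 calls became 4 with array weights, 5 with batch as a block, and 0 with median centring, no normalization, batch 3 alone, either choroid setting and the replicate block. With the inconsistent group, 3 became 1 among the brighter probe sets with a constant prior variance, 5 with batch as a block, and 0 with median centring, no normalization, batch 3 alone and either choroid setting. Where limma called 0, from 698 to 4642 probe sets reached an unadjusted p under 0.05, the 698 among the brighter probe sets alone (medium against low). Replicate numbers were taken only to name mice, and correlations of same-numbered arrays ran from -0.171 to 0.141. Among the 5 same-numbered pairs of high and medium arrays, 3 high arrays correlated best with the medium array of their own number. In the other 2 comparisons 0 did. Leaving out 1 mouse gave 0 (high replicate 2 or 3) to 10 calls (medium replicate 2 or high replicate 1) for high against medium, with 9 without medium replicate 3 and 7 without medium replicate 12 or high replicate 4. The test over 3 groups gave 0 (high replicate 2 or 3) to 5 calls (low replicate 5), with 1 and 4 without high replicates 4 and 1. The test over 4 groups gave 0 (high replicate 3 or 4) to 6 (high replicate 1), with 1 without high replicate 2. High against low gave 2 to 3 and medium against low 0.

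Differences near 0 changed sign. With median centring B2m (high minus low) was 0.023, Irf7 (high minus medium) 0.015 and Bst2 (medium minus low) -0.0033. Without normalization Usp18 was -0.055 (high minus low) and -0.029 (high minus medium), where B2m was -0.092 and Irf9 -0.15; medium minus low B2m was 0.013, Ifi27 0.024, Ifit1 0.0089, Ifit3 0.028, Irf7 0.023 and Irf9 0.014. Irf7 (high minus medium) was 0.025 with array weights, 0.0031 with batch as a block and 0.016 without medium replicate 9. In batch 3 alone Irf9 was -0.059 and the shared Isg15 probe set 0.046 (high minus medium), and Ifit1 was 0.053 and the shared probe set -0.080 (medium minus low). Without the 10 bright choroid plexus arrays Ifi27 was 0.072, 0.071 and 0.0011 in the 3 comparisons and Ifit3 0.019 (medium minus low). Without all 11, Ifi27 was 0.072 (high minus low) and 0.11 (high minus medium), and Ifit1 was 0.0039 (medium minus low). With the replicate block the shared probe set was 0.015 (high minus low), Ifi27 0.013 and Ifit3 0.034 (high minus medium). Leaving out 1 mouse, high minus low ran from -0.11 to 0.027 for B2m, -0.099 to 0.032 for Irf9, -0.044 to 0.14 for Usp18 and -0.14 to 0.040 for the shared probe set. High minus medium ran from -0.011 to 0.13 for B2m, -0.12 to 0.025 for Ifit3, -0.096 to 0.033 for Irf7, -0.031 to 0.10 for Irf9 and -0.16 to 0.013 for the shared probe set. Medium minus low ran from -0.041 to 0.095 for Bst2 and -0.0046 to 0.061 for the shared probe set.

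Of 28 pairs, 2 were called. The count was 1 by Spearman's rho, with levels centred within batches, with an offset of 1, in batches 2 and 3 alone (in batch 2 neither Bst2 with Ifi27, adjusted permutation p = 0.185, nor Ifit1 with Usp18, 0.336), without the 2 arrays farthest in the members' mean and with the shared probe set as a ninth gene. It was 0 in batch 1 alone, without the bright choroid plexus arrays (either setting) and in the 11 bright arrays alone, where fewer arrays entered, and 27 without normalization. Leaving out 1 mouse gave 1 to 3 pairs. The causes of these changes were not tested.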
